A study of Mus musculus with 12 samples.

Results

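The mitochondrial ribosomal protein genes studied here were all genes with an Mrpl or Mrps symbol followed by a number, without pseudogenes. The mouse reference table held 78 such symbols, and 71 of them, 43 Mrpl and 28 Mrps, had a probe set of their own among the 22180 genes tested. The other 7 (Mrpl30, Mrpl33, Mrpl41, Mrpl43, Mrpl44, Mrpl53 and Mrps6) lay only on probe sets shared with another gene and entered no count below unless that is said. Where a gene had several probe sets, the brightest on average was used. The rule uses only the symbols and the mean signal over all arrays.

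Expression was measured on 12 Affymetrix arrays of LSK cells, which carry no lineage markers but have Sca1 and Kit on the surface and include the haematopoietic stem cells and multipotent progenitors of the bone marrow. The cells were sorted from C57BL/6 mice and were not cultured. The groups were Mll5+/+ mock, Mll5-/- mock, Mll5+/+ with NAC and Mll5-/- with NAC, with 3 arrays each. Mll5, now named Kmt2e, encodes a chromatin regulator, and the deletion was present in the whole animal. NAC (N-acetyl-L-cysteine, a quencher of reactive oxygen species) was given at 1 g per liter of drinking water, from the mating of heterozygous parents, through pregnancy and for as long as the offspring lived, so its effect on the mother and on development was included. Mock mice had no NAC. The age of the mice, and whether each array came from its own mouse or from a pool, are not given in the labels, so a p-value here reflects only how much these arrays vary, which may be technical.

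Mitochondria make the core membrane subunits of the respiratory chain on ribosomes of their own. The ribosomal RNA of these ribosomes is encoded in the mitochondrial genome, while all their proteins are encoded in the nucleus, made in the cytosol and imported. Mrpl proteins belong to the large subunit, which forms the peptide bond, and most Mrps proteins belong to the small subunit, which decodes the messenger RNA. A few names depart from this: the proteins of Mrps18a and Mrps30 sit in the large subunit, and that of Mrps36 is a component of the alpha-ketoglutarate dehydrogenase complex. Haematopoietic stem cells are known for low mitochondrial activity.

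Promoter sequences of 4 members are shown because they stand for the patterns described below: Mrps22 and Mrpl47 had the highest values in the mutant relative to wild type, Mrps26 had lower values, and Mrps18a is the paralogue that differed least. Each is the 250 bases before the annotated start, 5′ to 3′ on the gene's strand, from RefSeq on assembly GRCm38.p6. Capitals mark CCGGAAG or its complement CTTCCGG, a form of the site bound by ETS factors. GABPA, an ETS factor, is a known regulator of nuclear genes for mitochondria. These exact letters are called the ETS core below, and other forms of the site were not searched. The windows lie at chr9:98601680-98601929 (minus strand) for Mrps22, chr3:32736756-32737005 (minus) for Mrpl47, chr2:130563507-130563756 (plus) for Mrps26 and chr17:46110754-46111003 (plus) for Mrps18a. The first base of the ETS core stands 11 bases before the start in Mrps22, 14 in Mrps26 and 26 in Mrps18a, and the window of Mrpl47 holds no match. The Mrps26 window overlaps the annotated gene 4930473A02Rik, and the other 3 windows overlap no other annotated gene.
Mrps22: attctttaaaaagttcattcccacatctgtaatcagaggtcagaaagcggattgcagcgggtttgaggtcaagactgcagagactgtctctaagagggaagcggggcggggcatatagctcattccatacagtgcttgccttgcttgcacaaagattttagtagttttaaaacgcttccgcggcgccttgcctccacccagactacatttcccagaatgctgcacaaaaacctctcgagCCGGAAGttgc
Mrpl47: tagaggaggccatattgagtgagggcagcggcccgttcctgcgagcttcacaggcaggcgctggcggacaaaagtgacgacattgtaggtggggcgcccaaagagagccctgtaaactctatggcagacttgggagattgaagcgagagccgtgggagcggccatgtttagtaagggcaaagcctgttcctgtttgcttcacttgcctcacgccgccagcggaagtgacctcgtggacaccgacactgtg
Mrps26: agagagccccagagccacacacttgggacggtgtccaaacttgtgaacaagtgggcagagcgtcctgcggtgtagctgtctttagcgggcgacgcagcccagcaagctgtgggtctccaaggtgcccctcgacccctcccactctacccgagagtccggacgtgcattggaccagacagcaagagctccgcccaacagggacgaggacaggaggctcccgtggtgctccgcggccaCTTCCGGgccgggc
Mrps18a: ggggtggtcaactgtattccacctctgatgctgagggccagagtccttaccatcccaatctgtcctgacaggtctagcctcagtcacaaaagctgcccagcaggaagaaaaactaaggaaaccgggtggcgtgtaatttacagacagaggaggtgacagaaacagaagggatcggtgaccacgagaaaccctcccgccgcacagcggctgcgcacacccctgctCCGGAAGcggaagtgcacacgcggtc

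Of the 71 members, 62 had an entry in the RefSeq promoter table, whose windows run from 250 bases before to 50 bases after the start. The table held 32851 windows for 27025 genes, and a gene was counted if any of its windows held the motif. The ETS core was found on either strand for 23 of the 62 members (37.1%). It was found for 12.7% of the 16990 tested genes with an entry and 44.9% of 49 cytosolic ribosomal protein genes. ATGGCGG, the core of YY1, a zinc finger factor, was found for 12 (19.4%) of these members against 5.96% of tested genes. GCATGCG, the core of NRF1, a factor named for its nuclear respiratory gene targets, was found in 7 (11.3%) against 5.11%. CACGTG, the E-box read by MYC and related factors, was found in 5 (8.06%) against 9.19%. At least 1 of the 4 motifs was found for 37 members (59.7%), against 27.5% of tested genes. The 49 cytosolic ribosomal protein genes gave shares near those of the members for these motifs too. They were 16.3% for YY1, 10.2% for NRF1, 8.16% for the E-box and 61.2% for at least 1 motif. No motif is contained in another, although neighbouring matches can overlap by some bases. These are matches of letters, and binding was not measured.

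The deposited values are log2 signals, so a difference of 1 is a factor of 2, and their median lay between 2.89 and 2.96 on every array. Between any 2 arrays the correlation over genes was 0.976 to 0.988. The lowest array weights were 0.71, for replicate 1 of wild-type mock, and 0.54, for replicate 1 of mutant NAC. Both are called the arrays that stand apart below, only because their weights were the lowest. The next lowest weight was 0.87, for replicate 3 of wild-type mock. A member's value is given again without both arrays that stand apart where that moves it by over 1.5 times. Of 8 measured LSK markers 0 lay below the median gene, and the same held for 0 of 6 granulocyte-monocyte progenitor genes, 0 of 3 erythroid genes and 1 of 5 megakaryocyte genes. Of the other marker lists 4 of 5 T and NK cell, 4 of 6 neutrophil, 3 of 6 B cell and 3 of 5 stroma and endothelium genes lay below it. Kmt2e gave a log2 difference of -0.34 between mutant and wild type over both treatments (SE 0.12, limma adjusted p = 0.419), and the part of the gene that its probe set reads is not given, so it does not check the genotype labels. Where a bulk signal differs, fewer cells of a type and less RNA per cell cannot be told apart.

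Most members had signals above that of the median gene. Their mean log2 signal over 12 arrays ran from 2.53 for Mrps36 to 9.54 for Mrps16, and 69 of 71 lay above the level of the median gene, 3.17. The exceptions were Mrps36 and Mrpl27 (3.11), the homologue of a bacterial protein near the peptidyl transferase centre. Levels of different genes come from different probe sets and were not compared further. The spread of the members between replicates was close to that of all genes: the median pooled SD was 0.189 on the log2 scale, against 0.201. The median standard error of a member's log2 difference was 0.156 between 2 groups and 0.11 for the genotype over both treatments.

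**Figure D1:**
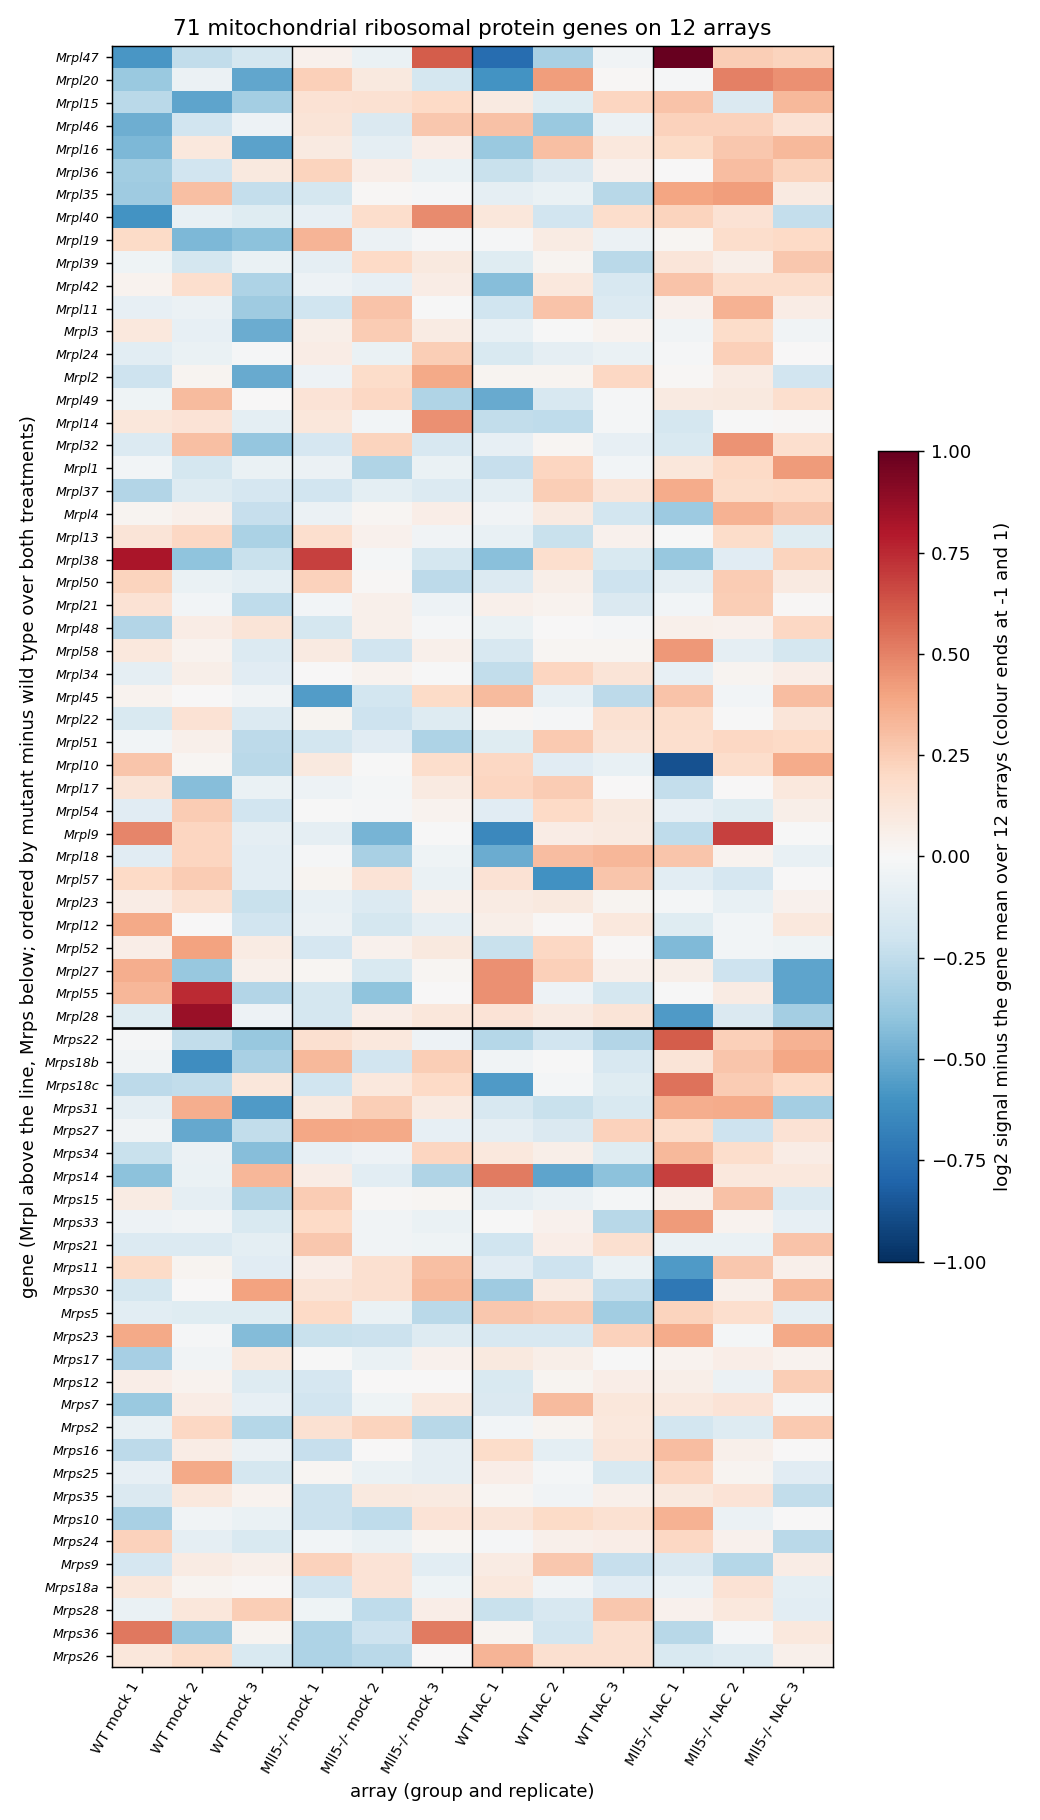
Log2 signal of each of the 71 members (rows, Mrpl above the line and Mrps below, ordered by the genotype difference) on each of the 12 arrays (columns), minus the member's mean over the arrays, with the colour scale ending at -1 and 1. Most cells are pale, and single deep cells such as Mrpl28 on wild-type mock replicate 2 or Mrpl47 on mutant NAC replicate 1 are values of 1 array.

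The genotype was first compared across treatments, with 6 arrays of each genotype, which asks what the loss of Mll5 changes whether or not NAC is given. No member passed the test (limma, adjusted p under 0.05 over all genes), as against 2 of 22180 genes (0.00902%), and the smallest member adjusted p was 0.16. More members were higher than lower in the mutant, 48 against 23 (67.6% higher, against 50.6% of all genes), with a median log2 difference of 0.08 against 0.003 over all genes. Of the 11088 genes above the median level, where 69 of the members lie, 51.7% were higher, with a median of 0.008, and 6.87% were higher and 6.2% lower at an unadjusted p under 0.05. Mrpl and Mrps genes gave 29 of 43 and 19 of 28 higher, with medians of 0.08 and 0.05. At an unadjusted p under 0.05, 10 members (14.1%) were higher and 2 (2.82%) lower, against 4.74% and 4.34% of all genes. The 10 were Mrpl15, Mrpl20, Mrpl36, Mrpl39, Mrpl46, Mrpl47, Mrps18b, Mrps18c, Mrps22 and Mrps34, and the 2 were Mrpl28 and Mrps26. No member separated all mutant from all wild-type arrays in either direction, which 0.311% of all genes did with the mutant higher and 0.234% with the mutant lower.

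Mrps22, a small subunit protein whose gene is mutated in an inherited mitochondrial disease, had the smallest p of the members. Its log2 signal was 6.30, 6.07 and 5.93 on the wild-type mock arrays and 6.47, 6.42 and 6.26 on the mutant mock arrays. With NAC it was 6.03, 6.12 and 6.02 in wild type and 6.92, 6.55 and 6.66 in the mutant. Mutant mock replicate 3 lay just under wild-type mock replicate 1, and every other mutant array lay above every wild-type array. The log2 difference over both treatments was 0.47 (SE 0.10, 1.38-fold, adjusted p = 0.16, rank 43 by p among all genes), and it was 0.47 (adjusted p = 0.172) without both arrays that stand apart and 0.42 to 0.52 over the alternatives.

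Mrpl47, a homologue of a bacterial large subunit protein, had the largest difference. Its log2 signal was 5.80, 6.14 and 6.21 in wild-type mock and 6.43, 6.32 and 6.99 in mutant mock cells. With NAC it was 5.62, 6.06 and 6.35 in wild type and 7.45, 6.63 and 6.61 in the mutant. The genotypes overlapped by 1 pair of arrays, mutant mock replicate 2 and wild-type NAC replicate 3, and the highest value came from mutant NAC replicate 1, an array that stands apart. The log2 difference over both treatments was 0.71 (SE 0.18, 1.63-fold, adjusted p = 0.289), and 0.51 (adjusted p = 0.435) without both arrays that stand apart. A second, dimmer probe set of Mrpl47 gave 0.27.

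The paralogues Mrps18a, Mrps18b and Mrps18c descend from 1 bacterial small subunit protein, and their products take up different places in the ribosome. Mrps18b had log2 signals of 7.31, 6.72 and 7.02 in wild-type mock, 7.67, 7.15 and 7.59 in mutant mock, 7.31, 7.34 and 7.18 in wild-type NAC and 7.47, 7.62 and 7.73 in mutant NAC cells. Its log2 difference over both treatments was 0.39 (SE 0.12, adjusted p = 0.339), and its second probe set gave 0.14. Mrps18c had 5.25, 5.26 and 5.62, then 5.31, 5.61 and 5.71, then 4.94, 5.49 and 5.39, then 6.05, 5.76 and 5.71 in the same order of groups, with a difference of 0.37 (SE 0.12, adjusted p = 0.391) and of 0.11 on its second probe set. Mrps18a lay between 7.10 and 7.44 on all 12 arrays, and its difference was -0.04 (SE 0.09, adjusted p = 0.93). The genotypes overlapped in all 3 paralogues, and the differences between paralogues were not tested.

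**Figure D2:**
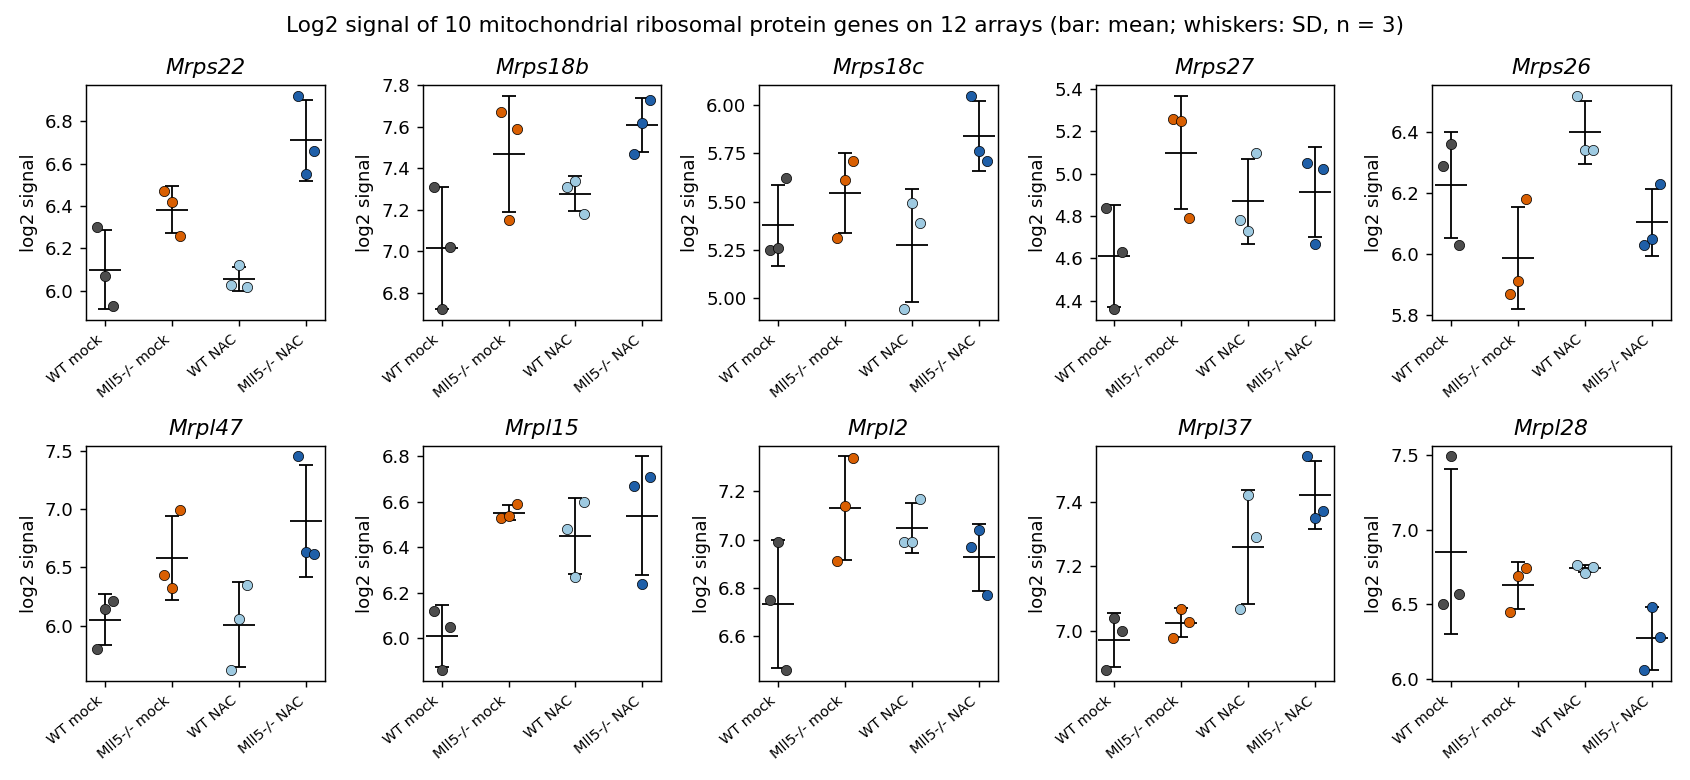
Log2 signal of 10 members in the 4 groups, 1 point per array (n = 3), with the mean as a bar and the SD as whiskers; each panel has its own scale. In Mrps22 the mutant NAC arrays lie above both wild-type groups, in Mrpl37 the NAC arrays of each genotype lie above its mock arrays, and in Mrpl28 wild-type mock replicate 2 lies far above the other 2 arrays of its group.

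Among the members with lower values, Mrps26, a small subunit protein with no bacterial homologue, had log2 signals of 6.29, 6.36 and 6.03 in wild-type mock and 5.87, 5.91 and 6.18 in mutant mock cells. With NAC the wild-type arrays gave 6.52, 6.34 and 6.34 and the mutant arrays 6.03, 6.05 and 6.23. The groups did not overlap with NAC and overlapped in mock, and the log2 difference over both treatments was -0.27 (SE 0.09, adjusted p = 0.412). Mrpl28, a homologue of a bacterial large subunit protein, differed by -0.35 (SE 0.16, adjusted p = 0.542), but wild-type mock replicate 2, at 7.49 against 6.50 and 6.57 for the other 2 arrays of that group, weighed on the mock comparison: the difference in mock was -0.23 with it and 0.09 without it. Mrpl12, whose protein binds the mitochondrial RNA polymerase, gave -0.12 (SE 0.10, adjusted p = 0.754), -0.02 without both arrays that stand apart and 0.10 on its second probe set. Mrps16, of the small subunit, gave 0.01 and Mrpl52, of the large subunit, -0.18.

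The choice of probe set mattered for the size of these differences. In the 9 members with more than 1 probe set of their own, the brightest and the other probe set differed in the same direction over both treatments for Mrpl10, Mrpl36, Mrpl47, Mrps5, Mrps16, Mrps17, Mrps18b and Mrps18c and in opposite directions for Mrpl12. For Mrpl10 (-0.02 and -0.04) and Mrps16 (0.01 and 0.05) the shared direction was that of values near 0. The Mrpl10 probe sets went in opposite directions in mock (0.08 and -0.22) and with NAC (-0.12 and 0.14). The log2 differences were nearly equal for Mrpl36, a homologue of a small bacterial large subunit protein (0.25 and 0.20), and larger on the dimmer probe set for Mrps5, a homologue of a bacterial small subunit protein (0.06 and 0.29). For Mrpl47, Mrps18b and Mrps18c the brightest probe set gave the larger value.

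Mutant and wild-type mock cells were compared to see what the loss of Mll5 changes without NAC. No member passed (0.00902% of all genes did), with a smallest member adjusted p of 0.503. Of the 71, 43 were higher and 28 lower in the mutant (60.6% higher against 50.2% of all genes), with a median log2 difference of 0.05 against 0.003 and a range of -0.45 to 0.54. The count of members higher ran from 36 to 50 on leaving out 1 array at a time. Of genes above the median level 54% were higher, with a median of 0.02, and 4.92% were higher at an unadjusted p under 0.05. At an unadjusted p under 0.05, 5 members were higher (3.55% of all genes were) and 0 lower (3.08%). Mrpl15, Mrpl47 and Mrps21 had all 3 mutant arrays above all 3 wild-type arrays, as did 5.94% of all genes, and 0 members had them below (5.46%).

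Mrpl15, a homologue of a bacterial large subunit protein, had the clearest separation in mock. It gave 6.12, 5.86 and 6.05 on the wild-type arrays and 6.53, 6.54 and 6.59 on the mutant arrays, a log2 difference of 0.54 (SE 0.15, 1.46-fold, adjusted p = 0.503). With NAC the genotypes overlapped (6.48, 6.27 and 6.60 against 6.67, 6.24 and 6.71), and the difference was 0.09 (SE 0.15). Mrpl47 differed by 0.53 in mock (SE 0.26, adjusted p = 0.769), Mrps27, a small subunit protein of the pentatricopeptide repeat family, by 0.49 (SE 0.18, adjusted p = 0.679), and Mrps18b by 0.45 (SE 0.17, adjusted p = 0.694). The second, dimmer probe sets of Mrpl47 and Mrps18b gave 0.16 and 0.13 in mock. Mrpl40, a large subunit protein, differed by 0.45 (SE 0.19), and Mrpl2, a homologue of a bacterial protein close to the peptidyl transferase centre, by 0.40 (SE 0.16). In Mrps27, Mrpl40 and Mrpl2 the groups overlapped, and Mrpl40 gave 0.29 without both arrays that stand apart. The most negative log2 differences were those of Mrpl55 at -0.45 (SE 0.26, adjusted p = 0.812), Mrpl9 at -0.39 (SE 0.26; -0.25 without both arrays that stand apart), Mrps26 at -0.24, Mrpl28 at -0.23 (-0.40 without them), Mrpl52 at -0.19 and Mrpl45, whose protein ties the ribosome to the inner membrane, at -0.18. The Mrpl55 signal spread widely in wild-type mock cells (7.39, 7.80 and 6.76) and the Mrpl45 signal in mutant mock cells (3.68, 4.05 and 4.43), and without mutant mock replicate 1 the difference of Mrpl45 was 0.00.

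With NAC the same genotype comparison asks whether the difference holds in treated cells. Again no member passed (0 of 22180 genes did, 0%), with a smallest member adjusted p of 0.457. Members were higher in the mutant in 50 cases and lower in 21 (70.4% higher against 50.7% of all genes), with a median log2 difference of 0.09 against 0.007 and a range of -0.48 to 0.89. Of genes above the median level 48.7% were higher, with a median of -0.007. At an unadjusted p under 0.05, 5 were higher (3.46% of all genes) and 2 lower (3.71%). All mutant arrays lay above all wild-type arrays in 10 members (6.39% of all genes): Mrpl24, Mrpl35, Mrpl39, Mrpl42, Mrpl47, Mrpl48, Mrpl49, Mrps18b, Mrps18c and Mrps22. All lay below in Mrpl28 and Mrps26 (6.05% of all genes).

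Mrpl47 differed by 0.89 on the log2 scale with NAC (SE 0.26, 1.85-fold, adjusted p = 0.555), and by 0.61 without both arrays that stand apart. Mrps22 differed by 0.65 (SE 0.14, 1.57-fold, adjusted p = 0.457), 0.55 without those arrays, and Mrps18c by 0.57 (SE 0.18, adjusted p = 0.596). The second, dimmer probe sets of Mrpl47 and Mrps18c gave 0.38 and 0.22 with NAC. Mrpl35, a homologue of a bacterial large subunit protein, gave 6.60, 6.62 and 6.41 in wild type and 7.08, 7.11 and 6.78 in the mutant, a log2 difference of 0.45 (SE 0.17, adjusted p = 0.644). In mock its difference was 0.04, with wild-type mock replicate 2 at 6.99 above every mutant mock array. Mrps14, of the small subunit, differed by 0.43 and by 0.24 without both arrays that stand apart, and Mrpl20, a homologue of a bacterial protein needed early in assembly of the large subunit, by 0.37 (0.10 to 0.61 on leaving out 1 array). On the negative side stood Mrpl27 at -0.48 (SE 0.20, adjusted p = 0.667), Mrpl28 at -0.47 (SE 0.22), Mrps26 at -0.30 (SE 0.13), Mrpl55 at -0.22, Mrpl17 at -0.20 and Mrpl52 at -0.17; without both arrays that stand apart the last 2 were -0.10 and -0.04. Mrpl27 is among the dimmest members, and its groups touched (3.57, 3.35 and 3.16 in wild type, 3.17, 2.90 and 2.58 in the mutant).

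The mock and NAC comparisons share no arrays. Across the 71 members their log2 differences correlated at r = 0.38 (Spearman's rho 0.30), against 0.24 and 0.18 across all genes. The correlation over only the genes above the median level, where 69 of the members lie, was not computed. Genes are not independent replicates, so no p is given. Members higher in the mutant in both comparisons numbered 33, and 11 were lower in both, against 6300 and 5940 of the 22180 genes. Mrpl47, Mrps22, Mrps18b, Mrps18c and Mrpl20 were among those higher in both, and Mrps26, Mrpl28, Mrpl55, Mrpl27 and Mrpl52 among those lower in both. Mrps26 and Mrpl55 stayed negative in both on leaving out any 1 array. Mrpl27 was lower mainly with NAC (-0.48, with an interaction of -0.43). Mrpl28 in mock was 0.09 without wild-type mock replicate 2, and Mrpl52 with NAC was -0.04 without both arrays that stand apart.

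**Figure D3:**
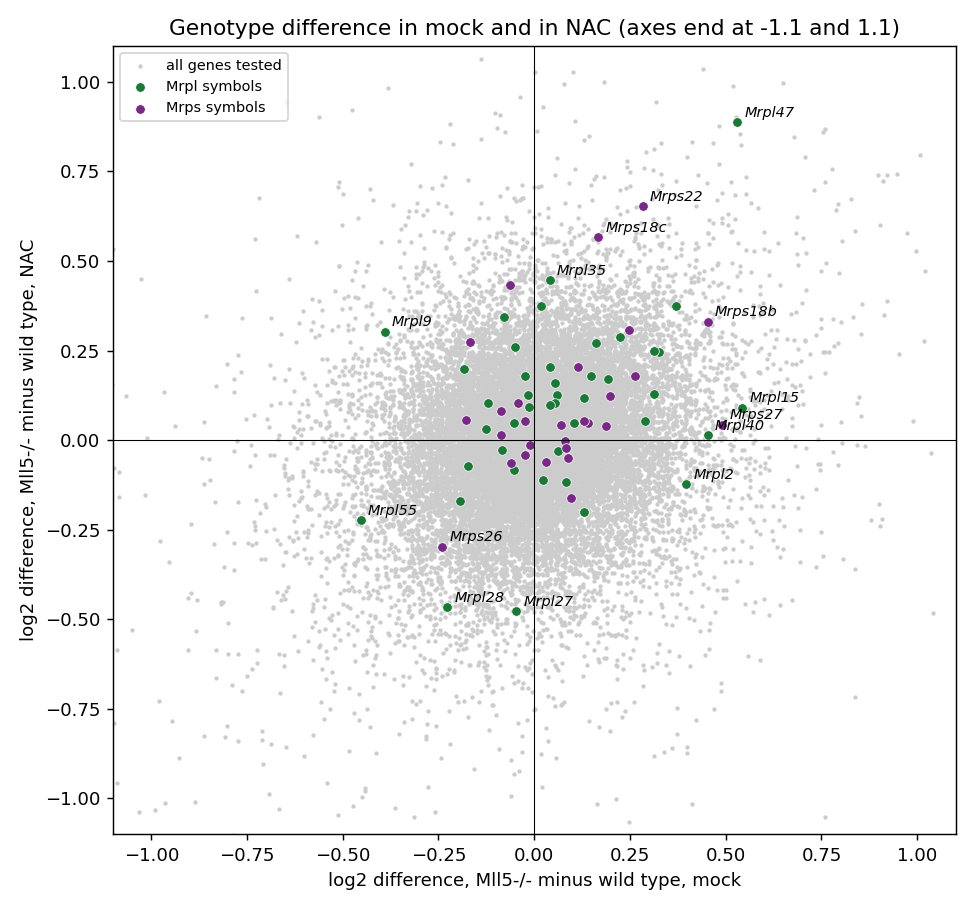
Log2 difference between Mll5-/- and wild type in mock (horizontal) and in NAC (vertical) for all genes tested (grey), Mrpl genes (green) and Mrps genes (purple); both axes end at -1.1 and 1.1. Most members lie in the cloud of all genes, Mrpl47 and Mrps22 lie toward its upper right edge, and Mrpl15, Mrps27 and Mrpl40 lie near 0 on the NAC axis.

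The effect of NAC was compared within each genotype. In the mutant, no member passed (0.00451% of all genes did), with a smallest member adjusted p of 0.749. With NAC 46 members were higher and 25 lower (64.8% higher against 49.6% of all genes), with a median log2 difference of 0.08 against 0.000 over all genes. Of genes above the median level 46.2% were higher, with a median of -0.02. At an unadjusted p under 0.05, 5 members were higher (2.68% of all genes) and 0 lower (3.18%), and 9 members had all NAC arrays above all mock arrays (5.08%), with 0 below (5.14%). The 9 were Mrpl1, Mrpl16, Mrpl35, Mrpl37, Mrpl42, Mrpl51, Mrps14, Mrps22 and Mrps23.

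In wild type no member passed either (0.00902% of all genes did), with a smallest member adjusted p of 0.718. Here 40 members were higher and 30 lower with NAC (56.3% higher against 48.9% of all genes, of which 50.3% were lower), and the median log2 difference was 0.03 against -0.003. The count of members higher ran from 32 to 48 on leaving out 1 array at a time. Of genes above the median level 51% were higher, with a median of 0.007. Unadjusted, 2 members, Mrpl15 and Mrpl37, were higher (2.96%) and 0 lower (2.96%). Mrpl15, Mrpl37 and Mrps10 had all NAC arrays above all mock arrays (5.42%), and 0 members had them below (5.32%).

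Mrpl37, a large subunit protein, was the only member whose arrays separated with NAC in both genotypes. Its log2 signal lay between 6.88 and 7.04 on the wild-type mock arrays and was 7.07, 7.42 and 7.29 in wild-type NAC cells. In the mutant it was 6.98, 7.07 and 7.03 in mock and 7.54, 7.35 and 7.37 with NAC. All 3 NAC arrays lay above all 3 mock arrays in each genotype, with wild-type NAC replicate 1 level with the highest mutant mock array to 2 decimals. The log2 difference was 0.39 in the mutant (SE 0.12, 1.31-fold, adjusted p = 0.749) and 0.29 in wild type (SE 0.12, adjusted p = 0.833), and without both arrays that stand apart these were 0.33 and 0.24.

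The largest log2 differences with NAC in the mutant were those of Mrps23 at 0.43 (SE 0.19), Mrps14 at 0.41 (SE 0.27), Mrpl37, Mrpl51 and Mrpl1 at 0.39, and Mrpl45 at 0.37. This order holds for the brightest probe sets. The dimmer probe set of Mrps5 gave 0.56, against 0.15 on its brightest, and that of Mrps18c gave -0.19, against 0.30. Mrpl51, a large subunit protein, was very even in mutant NAC cells (5.64, 5.68 and 5.67, against 5.29, 5.36 and 5.16 in mutant mock). Mrpl1, a homologue of a bacterial protein at the exit of transfer RNA, gave 5.33, 5.42 and 5.64 against 5.16, 4.92 and 5.15. In wild type these 2 genes differed by 0.17 and 0.08, with overlap. Mrps22 differed by 0.33 with NAC in the mutant (SE 0.14, adjusted p = 0.829) and by -0.04 in wild type. The most negative values in the mutant belonged to Mrpl28 (-0.35), Mrps30 (-0.32), Mrps11 (-0.26), Mrpl38 (-0.25), Mrpl14 (-0.24) and Mrps9 (-0.21). Those of Mrps30 and Mrps11 came from mutant NAC replicate 1, at 5.22 and 6.39 against 5.99 and 6.26, and 7.23 and 7.01, on the other 2 arrays, and both were -0.02 without both arrays that stand apart. Without those arrays Mrps14 gave 0.21 and Mrpl38 -0.11.

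In wild type Mrpl15 had the largest log2 difference with NAC, 0.44 (SE 0.15, adjusted p = 0.718), and its wild-type NAC arrays lay among the mutant arrays. Mrpl2 followed at 0.32, Mrpl16, Mrps10 and Mrpl40 at 0.30 and Mrpl37 at 0.29. Mrps10, of the small subunit, gave 5.47, 5.76 and 5.73 in mock and 5.92, 5.99 and 5.95 with NAC. The most negative were Mrpl9 (-0.36), Mrpl49 (-0.32), Mrps30 (-0.24), Mrpl14 (-0.22), Mrpl38 (-0.20) and Mrpl55 (-0.19), and in each of the 6 the arrays overlapped. Mrpl38 rested on wild-type mock replicate 1, at 6.38 against 5.16 and 5.34, and gave 0.18 without it. Without both arrays that stand apart Mrpl40 gave 0.13, Mrpl9 -0.22 and Mrps30 -0.37.

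**Figure D4:**
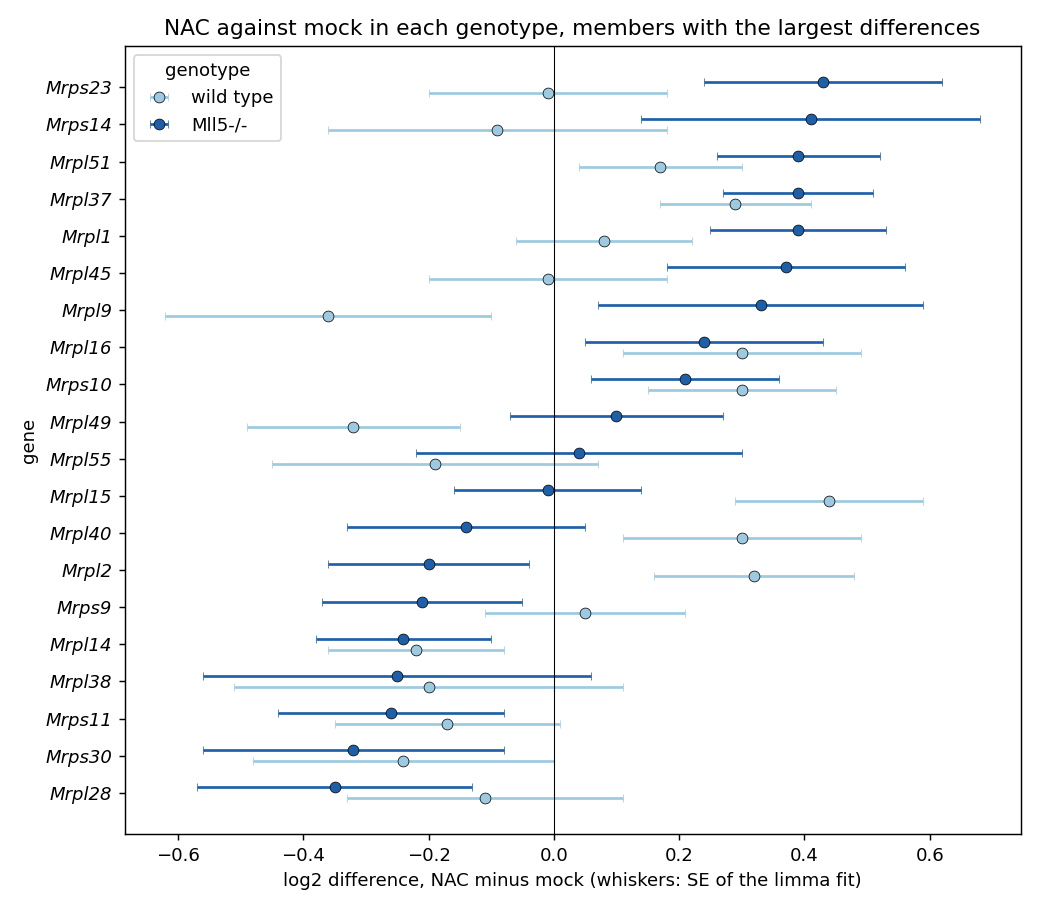
Log2 difference of NAC minus mock in wild type (light) and Mll5-/- cells (dark) for the members with the largest differences in either, with the standard error of the limma fit as whiskers. Mrpl37, Mrps10, Mrpl51 and Mrpl1 are among the members above 0 in both genotypes. Mrpl15 and Mrpl2 lie above 0 in wild type only, and Mrpl9 and Mrpl49 have opposite signs.

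The 2 NAC comparisons also share no arrays. Across the members their log2 differences correlated at r = 0.10 (Spearman's rho 0.12), against 0.20 and 0.13 across all genes. Here too no correlation was computed over only the genes above the median level. In both comparisons 27 members were higher and 11 lower, against 5791 and 5934 of the 22180 genes. The interaction, the genotype difference with NAC minus that in mock, called no member (limma; 0 of 22180 genes, 0%), with a smallest member adjusted p of 0.999. It was positive in 37 members and negative in 34 (52.1% positive against 49.8% of all genes), with a median of 0.02 on the log2 scale. The count of positive members ran from 29 to 46 on leaving out 1 array at a time. Of genes above the median level 45.4% were positive, with a median of -0.03. Unadjusted, 0 members were positive at p under 0.05 (2.02% of all genes) and 2 negative (2.2%), Mrpl2 at -0.52 (SE 0.22) and Mrpl15 at -0.45 (SE 0.21). The largest positive interaction was that of Mrpl9 at 0.69 (SE 0.37), followed by Mrps14 (0.50), Mrps23 (0.44), Mrpl49 (0.42), Mrpl35 (0.41) and Mrps18c (0.40), and Mrps27, Mrpl40, Mrpl27 and Mrpl17 completed the negative side at -0.45, -0.44, -0.43 and -0.33. Without both arrays that stand apart the interaction of Mrps23 was 0.18 and that of Mrpl27 -0.75. Mrps22 gave 0.37 (SE 0.19, adjusted p = 0.999). A difference between the genotypes in their response to NAC was therefore not detectable for any member with 3 arrays per group.

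Each array was also described by the median, over the 71 members, of the log2 signal minus the member's wild-type mock mean. This median was 0.03, 0.07 and -0.12 on the wild-type mock arrays, 0.03, 0.08 and 0.06 on the mutant mock arrays and 0.00, 0.07 and 0.05 on the wild-type NAC arrays. On the mutant NAC arrays it was 0.15, 0.15 and 0.12, above the other 9 arrays. The number of members above their wild-type mock mean was 45, 51 and 53 of 71 there, 41, 44 and 46 in mutant mock, 34, 49 and 44 in wild-type NAC and 40, 48 and 25 in wild-type mock cells. The pooled SD of this median between arrays of a group was 0.056. For the 43 Mrpl genes alone the mutant NAC arrays gave 0.08, 0.21 and 0.16. Replicate 1 there, an array that stands apart, lay under wild-type mock replicate 2, at 0.10. For the 28 Mrps genes the mutant NAC arrays gave 0.20, 0.11 and 0.09, above the other 9 arrays. The values are given as a description.

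Genes of proliferating cells also differed between these arrays. For 14 S phase genes the same median per array ran from -0.03 to 0.03 in wild-type mock, 0.13 to 0.32 in mutant mock, 0.10 to 0.24 in wild-type NAC and 0.21 to 0.30 in mutant NAC cells. For 13 G2 and M phase genes it ran from -0.17 to 0.19, 0.14 to 0.29, 0.14 to 0.29 and 0.26 to 0.40 in the same order. The 8 LSK markers ran from -0.21 to 0.15 in wild-type mock, 0.03 to 0.06 in mutant mock, -0.32 to -0.16 in wild-type NAC and -0.52 to -0.23 in mutant NAC cells. Megakaryocyte genes (5) ran from -0.10 to 0.01 in wild-type mock and -0.17 to 0.04 in wild-type NAC cells. They ran from 0.31 to 0.41 in mutant mock and 0.23 to 0.29 in mutant NAC cells, so these medians did not overlap between genotypes. The genes were split: 3 of 5 lay above their wild-type mock mean on mutant mock replicates 1 and 3 and mutant NAC replicate 2. The mean over the 5 was 0.12 and 0.11 on those mutant mock arrays and 0.10 on wild-type mock replicate 2. Granulocyte-monocyte progenitor genes (6) ran from -0.44 to 0.69 in wild-type mock, -0.90 to 0.32 in mutant mock, 0.46 to 0.62 in wild-type NAC and 0.08 to 0.55 in mutant NAC cells. Erythroid genes (3) ran from -0.20 to 0.48, -0.15 to 0.41, 0.33 to 0.52 and 0.17 to 0.96 in that order, and neutrophil genes (6) from -0.17 to 0.09, -0.22 to -0.15, 0.02 to 0.12 and -0.24 to 0.04. The part of these lists in the member values was not tested.

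**Figure D5:**
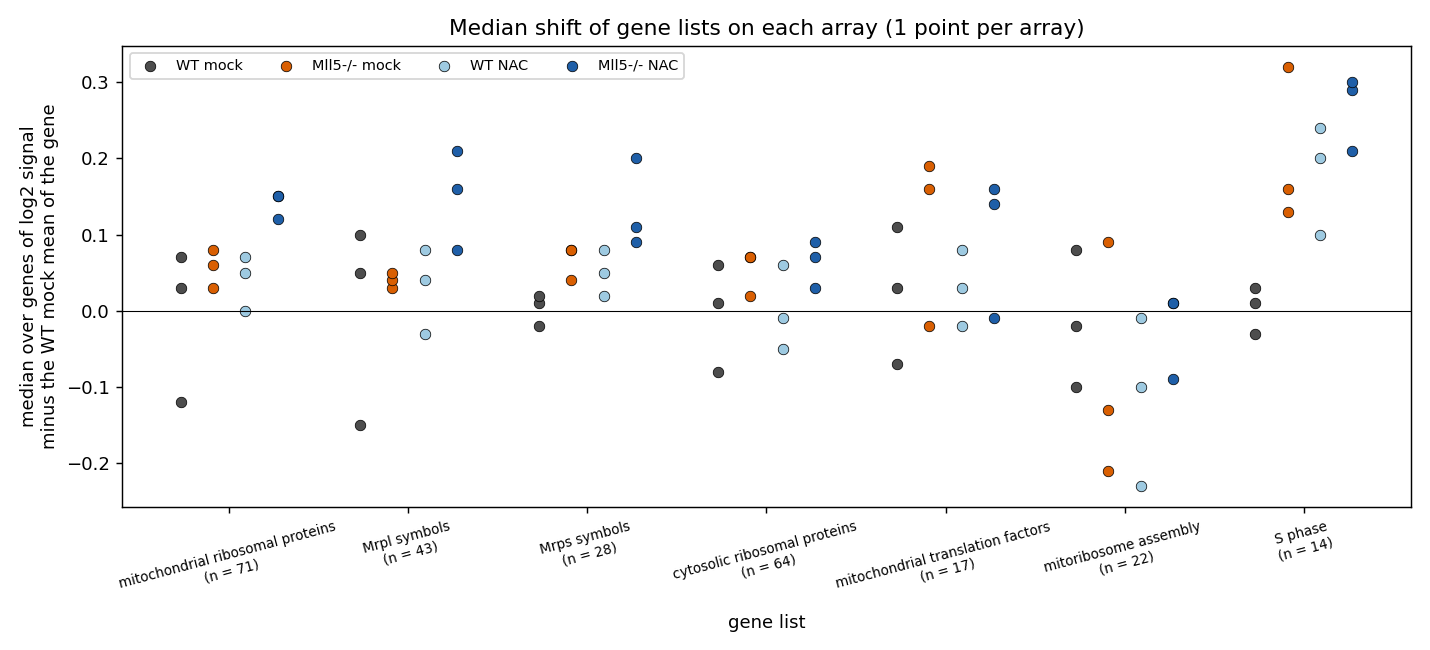
Median over the genes of a list of the log2 signal minus each gene's wild-type mock mean, 1 point per array, for the 71 members, the Mrpl and Mrps genes apart and 4 other lists, coloured by group. The 3 mutant NAC arrays are the highest for the 71 members, at 0.12 to 0.15, while for S phase genes all 3 other groups lie above wild-type mock.

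The rest of the translation machinery was described over the genotype comparison across both treatments, in which no gene of the following lists passed (limma, adjusted p under 0.05). Of 64 cytosolic ribosomal protein genes, 49 were higher in the mutant, with a median log2 difference of 0.05, and 6 (9.38%) were higher and 0 lower at an unadjusted p under 0.05, against 4.74% and 4.34% of all genes. Rpl7 (0.35, SE 0.12), Rps27l (0.23, SE 0.08) and Rpl6l (0.44, SE 0.16) had the smallest p among them. With NAC, 32 of the 64 cytosolic genes were higher with NAC in the mutant (median 0.002) and 26 in wild type (median -0.007), against 46 and 40 of the 71 mitochondrial ones. The difference between the lists was not tested.

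Mitoribosome proteins with other symbols numbered 3. Ptcd3, of the small subunit, differed by 0.37 (SE 0.19), Gadd45gip1, of the large subunit, by 0.27 (SE 0.11, adjusted p = 0.485), and Dap3, a GTP-binding small subunit protein, by -0.05. Ptcd3 was high on replicate 1 of each mutant group, at 6.96 and 7.30, against 6.04 to 6.40 on the other 10 arrays. Of 22 assembly factors 6 were higher in mock (median -0.07) and 15 with NAC (median 0.12), which over both treatments gave 13 higher and a median of 0.05. The smallest p values over both belonged to Noa1, a GTPase of small subunit assembly (0.32), Mtg2, a GTPase of large subunit assembly (-0.27), and C1qbp, a matrix protein (0.14). Mtg2 gave -0.53 in mock and -0.02 with NAC. Noa1 gave 6.95, 6.82 and 6.61 on the mutant NAC arrays, with 6.67 on wild-type mock replicate 2 and 5.91 to 6.28 on the other 8, a difference of 0.70 with NAC and -0.07 in mock.

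Among 21 genes for the charging of mitochondrial transfer RNAs, the aminoacyl-tRNA synthetases and Qrsl1, Gatb and Gatc of the glutamyl-tRNA amidotransferase, 14 were higher, with a median of 0.05. Yars2, the tyrosyl-tRNA synthetase, had log2 signals of 5.69, 5.93 and 6.29 in wild-type mock, 6.91, 6.28 and 6.84 in mutant mock, 6.28, 6.08 and 5.95 in wild-type NAC and 7.22, 6.62 and 6.84 in mutant NAC cells. Mutant mock replicate 2 lay 0.01 under the highest wild-type array and all other mutant arrays lay above all wild-type arrays. The difference of 0.75 (SE 0.15, 1.68-fold, adjusted p = 0.134) did not pass. Pars2, the prolyl-tRNA synthetase, differed by 0.37 (SE 0.10, adjusted p = 0.298) and Ears2, the glutamyl-tRNA synthetase, by 0.24 (SE 0.11). Of 17 translation factors 13 were higher (median 0.10), and the smallest p belonged to Mtfmt, which formylates the initiator transfer RNA, at -0.54 (SE 0.17, adjusted p = 0.341), followed by the factors Guf1 (0.18) and Mtif2 (0.17).

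Of 12 genes for mitochondrial DNA transcription and upkeep 9 were higher, with a median of 0.08. Tefm, the elongation factor of the mitochondrial RNA polymerase, differed by 0.31 (SE 0.17), Mterf1b, of the termination factor family, by 0.28 (SE 0.23; -0.01 in mock and 0.58 with NAC), and Tfam, which packages mitochondrial DNA, by 0.23 (SE 0.16). Of 23 import genes 20 were higher, with a median of 0.06, and Tomm7, Tomm20l and Tomm70a, of the outer membrane translocase family, differed by 0.22, 0.16 and 0.16. The value of Tomm7 averages -0.27 in mock and 0.70 with NAC. The 14 regulators of nuclear genes for mitochondria gave 6 higher and a median of -0.02. Ppargc1a, a coactivator of mitochondrial biogenesis, differed by 0.25 (SE 0.10, adjusted p = 0.483), Yy1 by 0.22 (SE 0.09) and E2f1, a cell cycle factor, by -0.16 (SE 0.08), and Gabpa, the DNA-binding subunit of the ETS factor named above, and Nrf1 by 0.12 and 0.11.

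The members were set against the promoter motif in the same comparison. The 23 members with the ETS core gave 14 higher in the mutant and a median log2 difference of 0.03, with a range of -0.27 to 0.47, from Mrps26 to Mrps22. The 39 without it gave 28 higher and a median of 0.11, and the 9 without a promoter entry gave 6 higher and a median of 0.08. Over all members the ends of the range, Mrpl28 at -0.35 and Mrpl47 at 0.71, held no exact match to CCGGAAG on either strand. Other forms of an ETS site were not searched.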

How the data were processed

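The authors deposited log2 signals. Per the submitters' processing notes, RMA and Affymetrix Power Tools were used, and their versions, the annotation and the genome build are not given in the sources. RMA corrects background, normalises by quantiles and summarises probe sets, which compresses differences of dim genes. The log base is not stated and was inferred from values of 0.74 to 13.23. Of 41345 probe sets 23521 carried 1 gene symbol, giving 22180 genes. Of these probe sets 23328 matched a gene of GRCm38.p6 (0 symbols were updated), and no filter was set on dim genes.

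limma 3.58.1 (R 4.3.3) fitted group means over the 12 arrays. The Benjamini-Hochberg adjustment covered all genes of a comparison, and the threshold was 0.05. Arrays limit the precision by their number. The script was tested on simulated data. Named members were the 6 largest and 6 most negative of each comparison, Mrps22, Mrpl12, the Mrps18 paralogues and the 2 brightest and 2 dimmest; from other lists, the 3 with the smallest p. Gabpa, Nrf1 and the members listed by counts were named beyond this rule, after their values were seen. Members and lists were chosen with earlier results of these data known. The replicate numbers were not used as a pairing. Figures were drawn with matplotlib 3.10.9.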

Additional observations from a re-analysis of the deposited data

How the results depend on the processing

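No member passed under any of the alternatives: array weights, centring, leaving out dim genes, trend and robust variance, quantile normalization anew, averaging the probe sets of a symbol, a fit of the compared groups alone, a block for the replicate number, a threshold of 0.10, leaving out each array and, added after seeing the data, leaving out both arrays that stand apart. The smallest member adjusted p over these was 0.105, for Mrps22 over both treatments without wild-type mock replicate 1. The median member difference was 0.01 to 0.09 for the genotype in mock, 0.06 to 0.12 in NAC, 0.05 to 0.11 over both, 0.05 to 0.11 for NAC in the mutant and -0.02 to 0.06 in wild type; the interaction's was -0.03 (without mutant NAC replicate 2) to 0.07. With the 7 members on shared probe sets added, also after seeing the data, the medians were 0.05, 0.09, 0.06, 0.09, 0.01 and 0.06 in that order. Members higher were also counted on leaving out 1 array at a time, which was not planned. They numbered 36 to 50 for the genotype in mock, 45 to 52 in NAC and 45 to 54 over both. For NAC they numbered 42 to 49 in the mutant and 32 to 48 in wild type, and for the interaction 29 to 46. Of the named members, leaving out 1 array turned Mrpl38 with NAC to 0.18 in wild type without wild-type mock replicate 1 (-0.43 to 0.18 over the arrays; 0.18 also without both arrays that stand apart) and to 0.01 in the mutant without mutant mock replicate 1 (-0.42 to 0.01). Mrpl28 in mock turned to 0.09 (-0.40 to 0.09) and Mrpl55 with NAC in wild type to 0.06 (-0.46 to 0.06) without wild-type mock replicate 2, and Mrpl45 in mock to 0.00 (-0.37 to 0.00) without mutant mock replicate 1.

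The counts of all genes called were 2 for the genotype in mock, 0 in NAC, 2 over both, 1 for NAC in the mutant and 2 in wild type and 0 for the interaction. They became 2 in NAC with the filter; 4 in NAC, 4 over both and 2 for NAC in the mutant with array weights; 2 for NAC in the mutant after quantile normalization; 1 in mock, 1 in NAC and 1 for NAC in wild type with only the compared groups; 2 in NAC, 12 over both and 3 for NAC in the mutant at 0.10; and 0 in mock, 4 over both and 0 for NAC in the mutant without both arrays that stand apart. Leaving out 1 array at a time gave 1 to 4 in mock, 0 to 3 in NAC, 1 to 7 over both, 0 to 2 for NAC in the mutant, 1 to 5 in wild type and 0 to 2 for the interaction. The cause was not tested. The replicate numbers give no pairing: the 18 same-numbered pairs correlated at -0.057 to 0.056 in their deviations from the group means. With the replicate block 1 gene was called in mock and 1 over both, and no other call differed.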
